A study of Rattus norvegicus with 6 samples.

Results

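Liver sinusoidal endothelial genes were examined in 6 male Sprague-Dawley rats by the RefSeq accession printed for each probe of a 1-colour array. The set was named as Stab1, Stab2, Lyve1, Clec4g, Kdr, Tek, Cdh5, Pecam1 and Vwf, and every non-control probe whose accession belonged to one of them was taken. This found 9 probes of 5 genes, out of 61657 probes and 15284 named genes in all. Lyve1, Tek, Cdh5 and Pecam1 had 2 probes each and Kdr had 1. No probe was matched to Stab1, Stab2, Clec4g or Vwf by this rule, and these 4 genes were not analysed here. The rats were 9 weeks old, of the outbred Crl:CD(SD) stock, and had all received corn oil at 5 mL/kg/day. The labels disagree on how long it was given, 3 days in the design text and 9 weeks in the treatment protocol. One group was killed after CO2/O2 anaesthesia (n = 3) and the other after isoflurane, an inhaled anaesthetic (n = 3), with 1 rat per array and no group without anaesthesia. The comparison asks how the kind of anaesthesia before killing bears on RNA levels in the liver.

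Sinusoidal endothelial cells are the thin, perforated lining of the liver's capillary bed. They take up waste macromolecules from blood through scavenger receptors and lectins, and they depend on vascular endothelial growth factor (VEGF), which signals through the receptor that Kdr encodes. Angiopoietins act on the related receptor kinase Tek, also called Tie2, while VE-cadherin (Cdh5) and CD31 (Pecam1) hold endothelial cells together. Several of these genes are also active in the lining of larger vessels, and Pecam1 also in platelets and leukocytes. Whole liver was measured, in which fewer endothelial cells and less RNA per cell cannot be told apart.

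Of the 10 pairs of measured genes, Lyve1 with Kdr and Tek with Pecam1 had the highest Pearson correlations over the rats (r = 0.79 each). Their rank correlations were 0.83 and 0.60, as described further on. The start regions of Lyve1 and Kdr are shown, the only measured genes for which one was available. Each is 250 bases before to 50 after the gene's start, read 5′ to 3′ along the gene, from RefSeq on the build GRCr8. Lyve1 lies on the minus strand at chr1:174410928-174411227 and Kdr on the plus strand at chr14:32571813-32572112. Both strands were searched for 5 motifs, and capitals mark the matches. The motif CAGGAA is a core that ETS transcription factors bind. GATA factors of blood and endothelium bind AGATAA. Factors of the SOX family bind sites such as ACAAAG. The Sp1 box of many promoters was taken as GGGCGG. The box for the TATA-binding protein was taken as TATAAA.
Lyve1: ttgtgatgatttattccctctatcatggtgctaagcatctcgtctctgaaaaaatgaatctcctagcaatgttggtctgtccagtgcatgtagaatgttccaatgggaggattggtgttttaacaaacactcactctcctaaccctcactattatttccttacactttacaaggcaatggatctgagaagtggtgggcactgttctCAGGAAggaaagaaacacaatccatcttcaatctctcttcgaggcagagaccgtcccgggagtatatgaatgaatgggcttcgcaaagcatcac
Kdr: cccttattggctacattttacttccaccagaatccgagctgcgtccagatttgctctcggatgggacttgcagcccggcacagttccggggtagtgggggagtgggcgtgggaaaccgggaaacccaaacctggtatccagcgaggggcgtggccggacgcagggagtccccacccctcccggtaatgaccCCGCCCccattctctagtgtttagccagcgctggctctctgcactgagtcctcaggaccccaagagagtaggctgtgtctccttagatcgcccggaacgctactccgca
The Lyve1 window held CAGGAA at position -44 from the start, a motif present in 29.1% of 33469 windows of this length. The Kdr window held the reverse complement of GGGCGG at -59, a motif present on either strand in 33.1% of windows. Lyve1 had 5 CpG pairs and 43.3% G and C, and Kdr had 18 pairs and 61.0%, where the median window had 7 pairs and 51.7%. These 2 windows thus had no searched motif in common. The promoter table held 5 of the 9 genes, the others being Stab1, Stab2 and Clec4g. The array files name another build, so no probe position is given.

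Signals are given as log2 intensity relative to the 75th percentile of each array, which is 0, and levels of different probes cannot be compared. A spot counts as detected where the scanner software called it well above background. Between 53.4% and 62.3% of all probes were detected per array, with the lowest share on isoflurane replicate 2. Of the 9 endothelial probes, 6 were detected on all 6 arrays. All 5 measured genes were thus detected in liver, Tek on 4 of 6 arrays. Among other endothelial genes, 9 of 9 genes of scavenging and the sinusoidal surface could be tested, among them Mrc1, Fcgr2b, Oit3 and Dnase1l3. Cd34, Sele and Selp, which mark other or activated endothelium, were not detected on any array. Vcam1 and Icam1, also of activated endothelium, were detected on all 6 arrays, as were Emcn, Icam2 and Esam.

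The 5 measured genes differed little between the kinds of anaesthesia, and none passed the test. In limma, 0 of 5 had an adjusted p below 0.05 and 0 of 5 an unadjusted p below 0.05. Over all genes tested, 0% of 10609 passed the adjusted threshold and 7.58% the unadjusted one, and over all 34637 probes 0.00866% passed after adjustment. The 5 differences, isoflurane minus CO2/O2 in log2 units, had a median of -0.09 with 4 below 0. Over all genes tested the median was -0.011, and 52.9% lay below 0. Of the 4, Tek met the detection filter through the CO2/O2 group only, where it was higher. With only probes detected on all 6 arrays, which leaves Tek out, the median was -0.069. The widest fold in either direction that the 95% intervals contained was 1.21 for Kdr, 1.30 for Pecam1, 1.32 for Cdh5, 1.40 for Tek and 1.47 for Lyve1. Where nothing in the labels ties rats to litters or cages, p-values measure the spread between these rats.

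**Figure D1:**
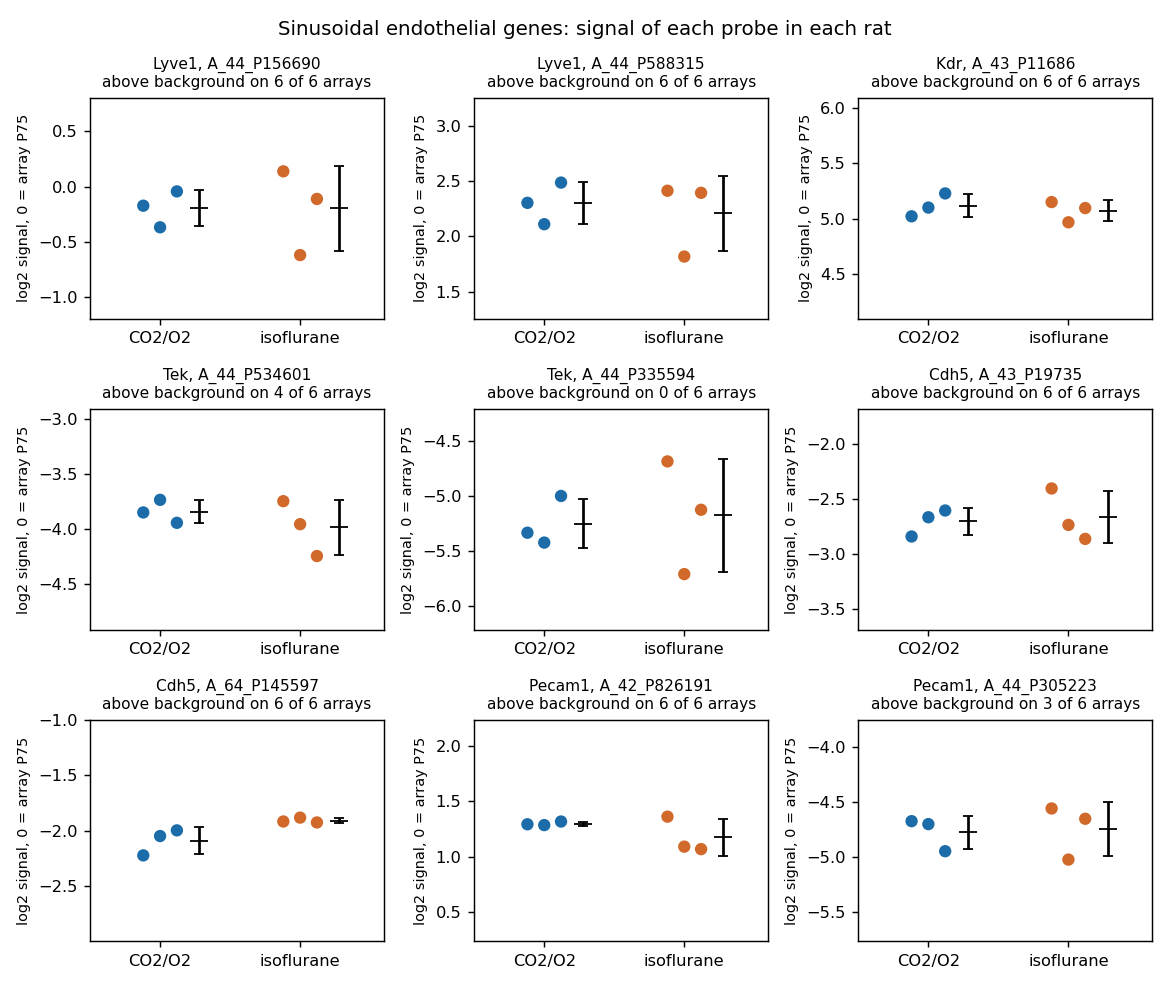
Signal of the 9 probes of 5 sinusoidal endothelial genes in each rat, as log2 intensity with 0 at the array's 75th percentile; points are arrays, bars are mean and SD (n = 3 per group), and every panel spans the same height. The groups overlap in 8 of 9 panels; probe A_64_P145597 of Cdh5 has all isoflurane points above the CO2/O2 points, by a small step.

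Lyve1, a receptor that binds hyaluronan, was the most variable of the 5 from rat to rat. Probe A_44_P588315 read 2.30, 2.11 and 2.49 after CO2/O2 and 2.41, 1.82 and 2.40 after isoflurane, listed as replicates 1 to 3 here and below. Isoflurane replicate 2 was the lowest rat, while the other isoflurane rats lay among the CO2/O2 rats. The group means were 2.30 ± 0.19 and 2.21 ± 0.34 (SD, n = 3 each), a difference of -0.09 (SE 0.19; limma adjusted p = 0.937). Probe A_44_P156690 gave -0.17, -0.37 and -0.04 after CO2/O2 and 0.14, -0.62 and -0.11 after isoflurane. It placed the same rat lowest, with a difference of -0.0029 (SE 0.21). Over the 6 arrays the 2 probes had r = 0.94 and rho = 0.94, and r = 0.995 without the 2 arrays farthest from the median of A_44_P156690. Across the 5229 genes with several probes tested, the top 2 probes had a median r of 0.73, the middle 50% of them lying between 0.37 and 0.91. The Lyve1 probes thus agreed on which rats were high or low. The spread within groups (SD 0.27) exceeded that of 79.6% of genes tested.

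Kdr, the VEGF receptor, varied little. Its probe read 5.02, 5.10 and 5.23 after CO2/O2 and 5.15, 4.97 and 5.10 after isoflurane. The whole range over 6 rats was 0.26, against a median of 0.41 for genes tested. The difference was -0.05 (SE 0.097, 95% interval -0.28 to 0.19; limma adjusted p = 0.938). Isoflurane replicate 2 was again the lowest rat and CO2/O2 replicate 3 the highest, the same extremes as for Lyve1.

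Tek, the angiopoietin receptor, was near the detection limit. Probe A_44_P534601 read -3.85, -3.73 and -3.94 after CO2/O2, all detected, and -3.75, -3.95 and -4.24 after isoflurane, of which replicate 1 alone was detected. It met the detection filter through the CO2/O2 group only, where it was higher. The difference was -0.14 (SE 0.14; limma adjusted p = 0.848). The arrays where it was not detected, isoflurane replicates 2 and 3, also had the smallest shares of detected probes, 53.4% and 55.7%. Their part in this value was not tested. Probe A_44_P335594 was not detected on any array and had no test.

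Cdh5, the cadherin of endothelial junctions, was the measured gene with a positive difference. Probe A_64_P145597 read -2.22, -2.05 and -2.00 after CO2/O2 and -1.92, -1.88 and -1.93 after isoflurane. All isoflurane rats lay above all CO2/O2 rats, the 1 such case among 5 genes, where the groups did not overlap for 14.2% of all genes tested. The difference was 0.18 (SE 0.091, 95% interval -0.04 to 0.40; limma adjusted p = 0.702). Probe A_43_P19735 read -2.84, -2.67 and -2.60 against -2.40, -2.73 and -2.86, with overlapping groups. Its difference was 0.036 (SE 0.14), and the 2 probes had r = 0.36 over the arrays. The step seen with the first probe was therefore not seen with the second.

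Pecam1, an adhesion molecule of endothelial junctions, had values of 1.29, 1.28 and 1.32 after CO2/O2 and 1.36, 1.09 and 1.07 after isoflurane on probe A_42_P826191. The CO2/O2 rats had an SD of 0.017, and isoflurane replicates 2 and 3 lay below them while replicate 1 lay above. The difference was -0.13 (SE 0.10, 95% interval -0.38 to 0.13; limma adjusted p = 0.810). Probe A_44_P305223 was detected on 3 of 6 arrays and was not tested. The 2 Pecam1 probes had r = 0.33.

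The 5 genes did not vary over the rats as 1 block. Pearson correlations of the 10 pairs over 6 arrays ran from -0.44 to 0.79 with a median of 0.09, and 6 of 10 were positive. With each group's mean removed they ran from -0.24 to 0.78, with a median of 0.23. These are descriptions over 6 points that share array, labelling and scaling, with no test. Lyve1 and Kdr had r = 0.79 (rho 0.83; 0.78 with group means removed), and r = 0.985 without the 2 arrays farthest from the Lyve1 median. Tek and Pecam1 had r = 0.79 (rho 0.60; 0.75 with group means removed), and 0.67 without the 2 arrays farthest from the Tek median. Cdh5 had r of -0.20 with Lyve1, 0.11 with Kdr, -0.33 with Tek and -0.44 with Pecam1 over all arrays. Without the 2 arrays farthest from the median of 1 gene of the pair, these were 0.69, 0.90, -0.11 and -0.53. That gene was Lyve1, Kdr, Tek and Cdh5 in turn, so the arrays left out differed by pair. With group means removed the values were -0.067, 0.55, -0.012 and 0.00086. The correlations of Cdh5 thus changed with the arrays taken and with the removal of group means. Over 6 arrays such values are common: between 3.57% (Cdh5) and 6.17% (Pecam1) of all other genes tested had r of at least 0.8 with a given member.

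**Figure D2:**
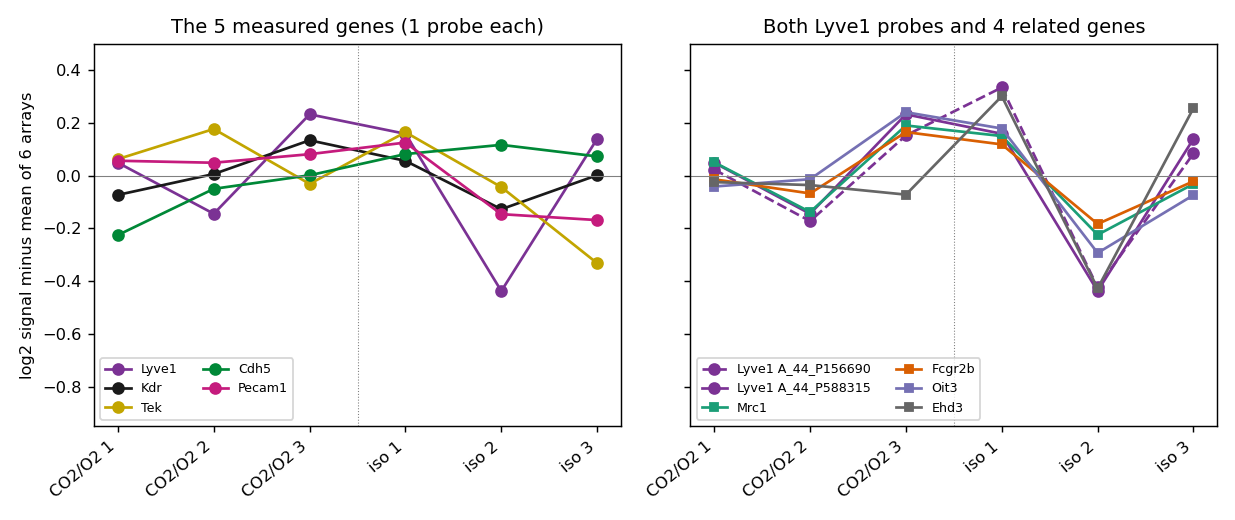
Log2 signal minus the mean of 6 arrays, by rat; lines join the values of 1 probe and the dotted line parts the groups. Left, the 5 measured genes: Lyve1 and Kdr are lowest on isoflurane replicate 2, Tek and Pecam1 on isoflurane replicate 3 and Cdh5 on CO2/O2 replicate 1. Right, both Lyve1 probes with Mrc1, Fcgr2b, Oit3 and Ehd3, all lowest on isoflurane replicate 2 for the probes drawn.

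Of the 9 related genes of scavenging and the sinusoidal surface, some varied with Lyve1 and Kdr and others did not. Fcgr2b, an inhibitory Fc receptor that clears immune complexes, had r = 0.91 with Lyve1 and 0.90 with Kdr. Oit3 had 0.84 and 0.93, and Mrc1, the mannose receptor, 0.91 and 0.77 on its probe of higher mean, while its other probe was lowest on CO2/O2 replicate 2. Ehd3, a membrane trafficking protein, had 0.78 and 0.52. The other 5 of the 9 had lower values, which were 0.15 and 0.04 for Cd36, -0.20 and -0.15 for Plvap, -0.12 and -0.27 for Scarf1, -0.24 and 0.27 for Aqp1, and -0.04 and 0.52 for Dnase1l3. Flt1, the other main VEGF receptor, had 0.85 and 0.96 on the probe with the higher mean, which was lowest on isoflurane replicate 2, whereas its other tested probe was highest there. Of 9 genes of scavenging and the sinusoidal surface, 4 were lowest on that rat (Mrc1, Fcgr2b, Oit3 and Ehd3), and 15 of all 51 related genes were, against 23.3% of all genes tested. The mean over 9 hepatocyte markers was also lowest there, at -0.16 relative to all arrays. Its part in the pattern was not tested. Tek and Pecam1 went with other genes. Lmo2, a partner of endothelial and blood transcription factors and detected on every array, had r = 0.92 with each. Klf2, a factor induced by blood flow, had 0.93 with Tek, and Sox17, itself detected on 5 of 6 arrays, had 0.95 with Pecam1. The Tek values on isoflurane replicates 2 and 3 were below detection, as given above. The names in this paragraph were picked with their values in view.

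A wider list of 61 genes of endothelial signalling and identity likewise gave no call. Of the 51 that were tested, 0 passed in limma after adjustment and 6 (11.8%, against 7.58% of all genes tested) had an unadjusted p below 0.05. Their differences had a median of -0.05, with 30 below 0 and 21 above. Of the 30, 5 (Pgf, Cldn5, Sox17, Sox7 and Bmp6) met the detection filter through the CO2/O2 group only, where they were higher. The groups did not overlap for 7 of 51 (13.7%, against 14.2% of all genes tested). Among the 9 genes of scavenging and the sinusoidal surface, all detected on every array, 7 differences lay below 0, with a median of -0.12. Over all genes tested, 52.9% lay below 0. The sign depended on the probe for Mrc1 and Oit3, whose other probes had 0.018 and 0.013, while those of Fcgr2b, Scarf1, Cd36 and Plvap lay below 0. Other roles went the other way: 5 of 8 junction and surface genes lay above 0 (median 0.073), and 3 of 5 haemostasis and vasoactive genes (median 0.12).

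**Figure D3:**
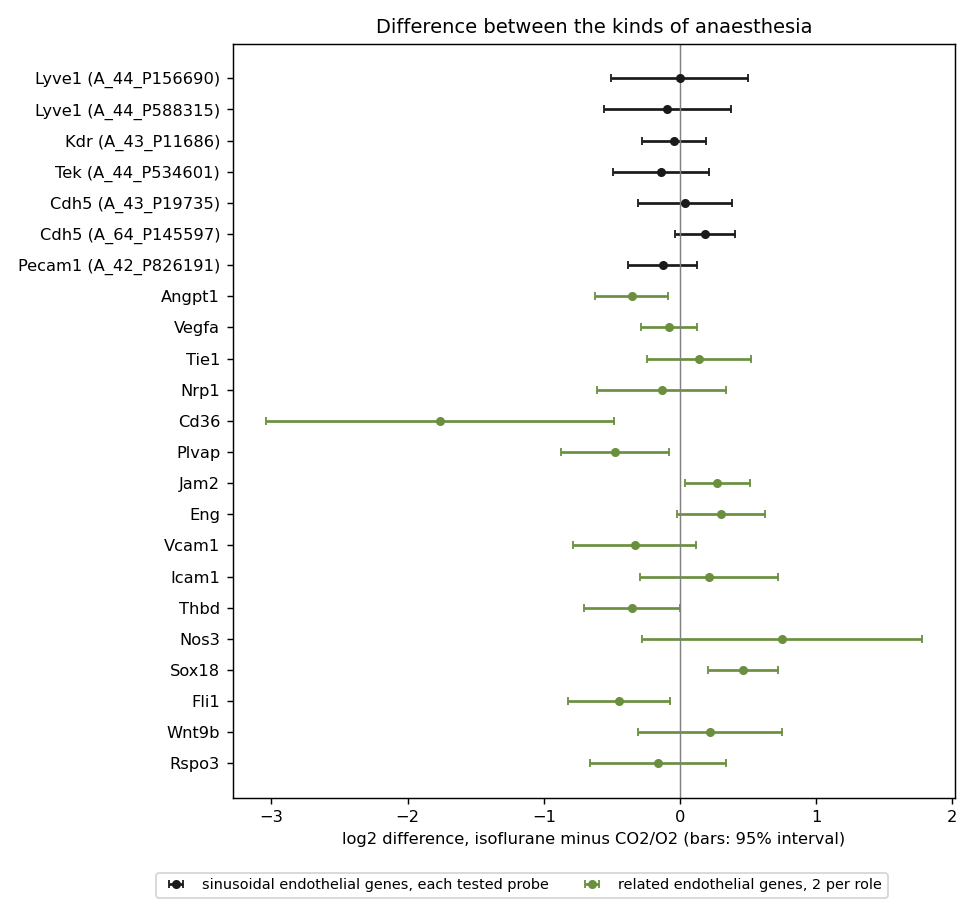
Log2 difference, isoflurane minus CO2/O2, with its 95% interval (limma, n = 3 per group), for each tested probe of the sinusoidal endothelial genes (black) and for 16 related endothelial genes, those of largest moderated t in each role (green). The black points lie between -0.14 and 0.18; the green ones run from -1.76 for Cd36 to 0.75 for Nos3.

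Among ligands of these receptors, Angpt1, which activates Tek, had a difference of -0.35 (SE 0.11; limma adjusted p = 0.597). It read -3.35, -3.23 and -3.43 after CO2/O2 and -3.52, -3.79 and -3.75 after isoflurane, with no overlap. All were detected but dim: the lowest signal called detected was -4.18 on isoflurane replicate 2 and -4.42 on isoflurane replicate 3. Its difference was -0.18 with normexp background correction and -0.12 with a slope over array place shared by both groups. Vegfa, the main ligand of Kdr, had -0.08 on its representative probe, and all 6 of its probes were detected on every array. Of the other receptors, Tie1, the partner of Tek, had 0.14 and Nrp1, a co-receptor for VEGF, -0.13. None of these ligands and receptors passed the test.

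Cd36, a scavenger receptor and fatty acid transporter that hepatocytes also make, had the widest range over the 6 rats among the tested probes of the list. Probe A_64_P054808 read 4.57, 4.07 and 2.83 after CO2/O2 and 2.86, 1.72 and 1.59 after isoflurane, and the groups overlapped by a small margin. The difference was -1.76 (SE 0.53; limma adjusted p = 0.588). The other 2 probes had -1.75, with no overlap, and -1.52. That order is also close to the order of the arrays' places on the slide. CO2/O2 arrays held places 1 to 3 and isoflurane arrays places 4 to 6, so place and kind of anaesthesia cannot be told apart here. In a fit with a slope over place shared by both groups the difference was 0.49 (SE 0.45). Plvap, which forms the diaphragms of endothelial pores and caveolae, had -0.48 (SE 0.16; limma adjusted p = 0.615), and 0.099 with that slope. It read 3.16, 3.15 and 2.76 after CO2/O2 and 2.66, 2.68 and 2.29 after isoflurane, all below the CO2/O2 rats. The groups did not overlap on its second probe either, at -2.88, -2.71 and -3.27 against -3.44, -3.31 and -4.10. Both probes read the same RNA samples, so the second is not independent of the first.

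Among transcription factors, Sox18, which drives vascular development, was higher in all isoflurane rats with each of its 2 probes. Probe A_42_P623913 read -0.38, -0.51 and -0.38 after CO2/O2 and 0.20, 0.0085 and -0.10 after isoflurane. The difference was 0.46 (SE 0.11, 95% interval 0.20 to 0.72; limma adjusted p = 0.550). Probe A_44_P454913 read -1.72, -1.71 and -1.55 against -0.91, -1.09 and -1.16, a difference of 0.61 (limma adjusted p = 0.460). Neither passed. Fli1, an ETS factor of endothelium and blood cells, had -0.45 (SE 0.15) and did not overlap between groups. Both genes, like Angpt1, Cd36, Plvap, Jam2 and Eng, were named for their large moderated t, which favours groups that do not overlap. Fli1 was -0.20 with normexp background correction and -0.043 with the slope over array place. Sox18 was 0.42 and 0.68 under these settings.

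The remaining roles held single genes of some size and wide error. At junctions, Jam2 had 0.27 with no overlap on 1 probe and 0.020 on the other, and Eng, a co-receptor for bone morphogenetic proteins, had 0.30 with no overlap. Of the adhesion molecules of activated endothelium, Vcam1 had -0.33 and Icam1 0.22. Thrombomodulin (Thbd), which turns thrombin towards anticoagulation, had -0.35. Nos3, the endothelial nitric oxide synthase, had 0.75 (SE 0.43), resting on isoflurane replicate 3 at -0.04, where the other 5 rats lay between -1.94 and -1.48. Without that rat the difference was 0.23. Of signals that endothelium sends to hepatocytes, Wnt9b had 0.22 and Rspo3 -0.16. None of these genes passed the test.

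Lyve1 and Kdr turned in direction when single rats were left out, and Lyve1, Kdr, Tek and Pecam1 when slide row was a covariate. Cdh5 kept a positive difference in all 18 alternatives, from 0.018 to 0.23. Lyve1 ran from -0.22 to 0.11, Kdr from -0.16 to 0.034, Pecam1 from -0.22 to 0.077 and Tek from -0.26 to 0.30. The median of the 5 was -0.19 without isoflurane replicate 1 and 0.0065 without isoflurane replicate 2. No alternative brought a member past the threshold.

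**Figure D4:**
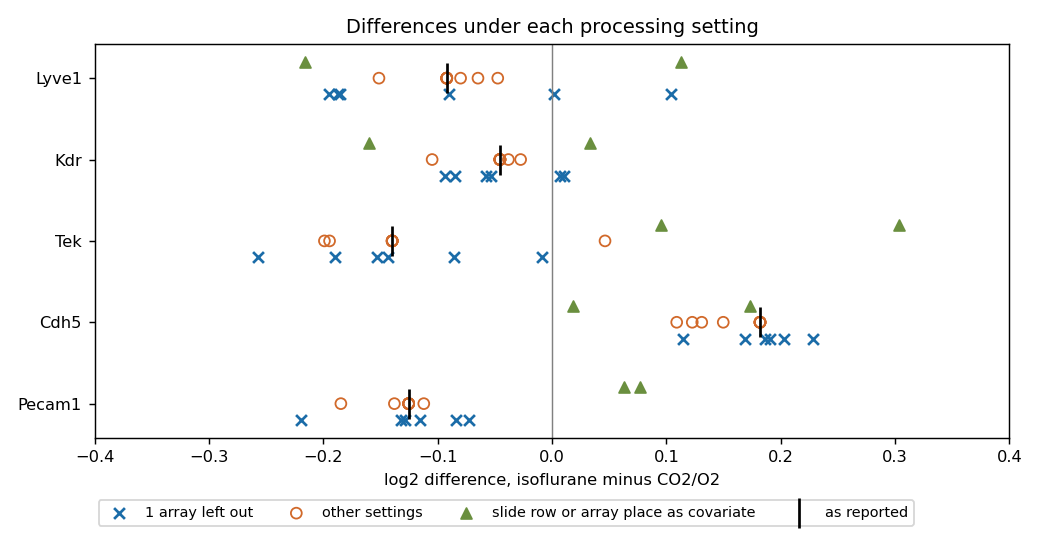
Log2 difference, isoflurane minus CO2/O2, of each measured gene as reported (black bar), with 1 array left out (crosses), with slide row or array place as a covariate (triangles) and with other settings (circles). Cdh5 stays above 0 throughout, and the other 4 genes have points on both sides of 0.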

How the data were processed

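Liver RNA of 6 rats, 3 per group and 1 per array, was labelled with Cy3 (0.2 ug), per the labels' protocols, and scanned spots were read with Agilent Feature Extraction 10.7, per the submitters' processing notes. The deposited spot values are background-corrected intensity values on a linear scale, per the file headers. The deposited value table holds a ratio: each column equals the processed intensity divided by 1 number near that array's 75th percentile, with no centring; column medians lay between 0.0864 and 0.0917, and the rule behind the divisor is not given in these sources. All arrays shared 1 slide and 1 scan time, with CO2/O2 arrays at places 1 to 3 and isoflurane arrays at places 4 to 6. Deposited detection and outlier flags take 0 or 1.

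Each array was scaled by subtracting, from log2 processed intensity, its 75th percentile over 61657 non-control probes. The 177 spots marked as outliers were left out; 0 spots were saturated. Probes detected on all 3 arrays of at least 1 group (34637) were fitted with limma 3.58.1 (lmFit, eBayes) in R 4.3.3, with Benjamini-Hochberg adjustment over them and a threshold of 0.05. Probes were named by unversioned accession through RefSeq genes of GRCr8: 27460 matched 1 gene, 0 several and 34197 none. A gene is its tested probe of highest mean. Python 3.11.15 and pandas 2.3.3 were used for tables. The fit was also run on simulated data with independent noise, larger changes than those of the members and no effect of array place. That run therefore does not bear on the members' small differences or on place. The members and lists were chosen with earlier results of these data known. Named were every member, 2 related genes per role by moderated t, and 5 genes of like pattern. Alternatives were normexp with offset 50, quantile and median scaling, the value table, other filters, trend and robust eBayes, blocks for replicate number and slide row, a slope over array place, the mean of probes, the unadjusted threshold, and leaving out each array.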

Additional observations from a re-analysis of the deposited data

How the results depend on the processing

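The counts of endothelial and related genes past the threshold, 0 and 0, were the same in every alternative with adjusted p, and 0 and 6 at an unadjusted p. Probes past the threshold, 3, numbered 5 with normexp and with trend and robust eBayes, 1 with no filter on dim probes, 0 with a slope over array place, and 2616 at an unadjusted p. Dropping single arrays gave 1 to 20: 20 for CO2/O2 replicate 3, 17 for isoflurane replicate 1, 5 for isoflurane replicate 2, and 1 for either CO2/O2 replicate 1 or isoflurane replicate 3. With the replicate number as a block, 0 probes passed and the median of the 5 genes was -0.09. Deviations of same-numbered arrays had r of 0.11, 0.021 and 0.060. CO2/O2 replicates 1 and 3 correlated best with their own number, and CO2/O2 replicate 2 with isoflurane replicate 3 (r = 0.037). These low values neither show nor exclude a pairing by number, and the main fit used none. The median difference of the 5 endothelial genes became 0.095 under a slide-row block and 0.018 under the slope over place, and ran from -0.19 to 0.0065 when single arrays were left out. The slide-row block compares only isoflurane replicate 1 with CO2/O2; under it Lyve1 was 0.11, Kdr 0.034, Tek 0.095, Pecam1 0.063, Nrp1 0.29 and Wnt9b -0.13. With the slope, Tek was 0.30, Pecam1 0.077, Nrp1 0.23, Cd36 0.49, Plvap 0.099, Nos3 -0.14 and Wnt9b -0.16. Tek was 0.046 with normexp. Leaving out single arrays, Lyve1 ran from -0.19 to 0.10, Kdr from -0.093 to 0.010, Nrp1 from -0.35 to 0.013 and Rspo3 from -0.35 to 0.011; the values above 0 came without isoflurane replicate 2, and for Lyve1 (0.0014) and Kdr (0.010) also without CO2/O2 replicate 3. The cause of these turns was not tested. For single genes, 357 alternative values kept direction and side of the threshold and 20 turned in direction. Dim signal limits Tek, whose probes were detected on 4 and 0 of 6 arrays.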

Other observations

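Markers of other cells, measured in the same way, gave no call. Differences lay below 0 for 11 of 11 Kupffer cell markers (median -0.33), 7 of 7 lymphocyte markers (-0.35), 4 of 5 erythroid markers (-0.37), 4 of 5 cholangiocyte markers (-0.33), 3 of 4 platelet markers (-0.12) and 3 of 3 lymphatic markers (-0.06), where 52.9% of all genes tested lay below 0. Smooth muscle, stellate cell and hepatocyte markers had medians of -0.019, 0.023 and 0.027. In limma, 0 genes of these 9 lists passed after adjustment. An unadjusted p below 0.05 was found for 6 of 11 Kupffer cell, 3 of 7 lymphocyte, 2 of 5 erythroid, 1 of 5 cholangiocyte and 1 of 3 lymphatic markers and for 0 of the other 4 lists, against 7.58% of all genes tested. Their part in the endothelial values was not tested. The mean over the Kupffer cell list, relative to all arrays, was 0.35, 0.22 and -0.04 after CO2/O2 and -0.09, -0.21 and -0.23 after isoflurane, that of the 5 endothelial genes was -0.03, 0.0079 and 0.084 against 0.12, -0.13 and -0.06, and that of the hepatocyte list -0.073, 0.040 and 0.060 against 0.099, -0.16 and 0.031. The means of the Kupffer cell, cholangiocyte and lymphocyte lists fell from each array place on the slide to the next, and those of the other lists did not. CO2/O2 arrays held places 1 to 3 and isoflurane arrays places 4 to 6, so place and kind of anaesthesia cannot be told apart. No difference between lists was tested.

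Of 10541 genes outside the endothelial lists, the 5 whose values over the 6 arrays were most like the mean of the endothelial genes, with group means removed, were Tnni3, Ankhd1, Pde3b, Cyp2c12 and Tox4, with r from 0.995 to 0.998. An r of at least 0.9 was reached by 291 genes, or 2.76%, so these are the extremes of many comparisons over 6 points. The mean was taken of unscaled values, so Lyve1, the most variable endothelial gene measured, weighed most in it. Without the removal of group means, r of the 5 like-pattern genes ran from 0.64 for Ankhd1 to 0.99 for Cyp2c12. The probe matched to Cyp2c12, a cytochrome P450 with close paralogs, varied most among them, from 3.07 on isoflurane replicate 2 to 6.10 on isoflurane replicate 1. Whether that probe also reads RNA of the paralogs was not tested.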
